A study of Mus musculus with 18 samples.

Results

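The genes described here encode the DNA methylation and demethylation machinery of the mouse other than Dnmt1 itself. They are the de novo methyltransferases Dnmt3a and Dnmt3b, their catalytically inactive cofactor Dnmt3l, the hemimethylated-DNA reader Uhrf1, the 5-methylcytosine dioxygenases Tet1, Tet2 and Tet3, and the glycosylase Tdg. These 8 genes were taken by name from the GENCODE vM1 annotation of the NCBIM37 genome, out of 37252 annotated genes on the autosomes and the X chromosome. Methylation was read by whole-genome bisulfite sequencing in 18 libraries of mouse embryonic stem cells, 9 of control cells labelled wild type and 9 of Dnmt1 KO cells, in which Cre induced by tamoxifen had deleted Dnmt1. All cells grew in serum with LIF and were collected at days 1, 3, 6, 9 and 11. Each genotype had a single library at day 6 and 2 replicates at the other days. E14 stood as background strain on all labels, but per the methods the line with floxed Dnmt1 was C57BL/6. In comparisons between genotypes a difference between lines, if there was one, and the effect of the deletion cannot be told apart. Comparisons between days within Dnmt1 KO do not set the genotypes against each other. The labels do not say that replicates were separate cultures, and p-values measure only the spread between these libraries, which may be technical.

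In dividing cells Dnmt1, guided by Uhrf1, copies methylation onto the new strand after replication. Dnmt3a and Dnmt3b, helped by Dnmt3l in embryonic stem cells and germ cells, add methyl groups to unmethylated CpGs. Tet enzymes oxidise 5-methylcytosine, and Tdg excises the oxidised bases so that base excision repair can restore cytosine. Methylation of a gene body is common in active genes, whereas CpG-rich promoters are usually unmethylated. The data hold methylation only, and no expression of these genes was measured here.

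Each gene was split into a start, 1 kb either side of the annotated gene start, and a body, the rest of the gene. The methyltransferase genes lay at chr12:3806007-3914443 (Dnmt3a), chr2:153475186-153513466 (Dnmt3b) and chr10:77504692-77526367 (Dnmt3l), and Uhrf1 at chr17:56442744-56462909, all on the plus strand. Tet1 lay at chr10:62267318-62361866, Tet2 at chr3:133126643-133207354 and Tet3 at chr6:83312367-83391672, on the minus strand, and Tdg at chr10:82092573-82113544 on the plus strand. The 8 bodies held 5655 CpGs and the 8 starts 731. Bodies held from 8.10 CpGs per kb in Tet2 to 15.4 in Uhrf1, beside 9.24 over all gene bodies. Libraries held between 7190722 and 11158414 calls, a call being a read over a cytosine, and the summed bodies received between 1801 and 3214 calls per library. The summed starts received only 114 to 309. Intervals for pooled values are 95% Clopper-Pearson intervals and cover counting error only. As a check of the labels, the run of CpGs in Dnmt1 with no call in Dnmt1 KO from day 3 on and the most control calls was sought. It lay at chr9:20744012-20745971 with 39 CpGs, and held 173 calls in the 9 control libraries and 4 in Dnmt1 KO at day 1. The next run of this kind held 25 control calls. The absence of calls from day 3 on was the criterion, so these counts are a description.

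RefSeq promoter sequences from GRCm38.p6 were available for all 8 genes, with 13 starts in all, and each was found exactly once in the NCBIM37 sequence. In Tet1 the RefSeq start fell at chr10:62350072, 11794 bp inside the gene as GENCODE vM1 draws it and 7310 bp from the nearest GENCODE start. Tet1, Tet2 and Dnmt3l are shown because they span the range from CpG-rich to CpG-poor starts. Below are the 250 bases upstream of these starts on the strand of the gene, in lower case with every CpG in capitals.
Tet1 upstream of the RefSeq start, chr10:62350073-62350322, minus strand: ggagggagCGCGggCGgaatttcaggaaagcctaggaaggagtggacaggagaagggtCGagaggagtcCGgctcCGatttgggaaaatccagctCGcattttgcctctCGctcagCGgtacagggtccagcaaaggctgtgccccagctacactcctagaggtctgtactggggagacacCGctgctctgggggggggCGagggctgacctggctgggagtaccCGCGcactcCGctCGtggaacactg
Tet1 upstream of the GENCODE start, chr10:62361867-62362116, minus strand: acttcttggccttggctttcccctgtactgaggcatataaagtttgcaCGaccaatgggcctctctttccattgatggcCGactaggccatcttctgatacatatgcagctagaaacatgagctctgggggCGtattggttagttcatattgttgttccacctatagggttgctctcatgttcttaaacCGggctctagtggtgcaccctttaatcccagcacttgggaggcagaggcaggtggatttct
Tet2 upstream of the RefSeq start, chr3:133207355-133207604, minus strand: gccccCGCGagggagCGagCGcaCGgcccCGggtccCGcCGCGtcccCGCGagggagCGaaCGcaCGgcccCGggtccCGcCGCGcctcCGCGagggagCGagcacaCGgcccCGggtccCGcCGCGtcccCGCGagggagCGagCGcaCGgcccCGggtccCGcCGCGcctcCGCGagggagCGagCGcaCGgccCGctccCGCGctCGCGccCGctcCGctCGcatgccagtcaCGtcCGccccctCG
Dnmt3l upstream of its internal RefSeq start, chr10:77512337-77512586, plus strand: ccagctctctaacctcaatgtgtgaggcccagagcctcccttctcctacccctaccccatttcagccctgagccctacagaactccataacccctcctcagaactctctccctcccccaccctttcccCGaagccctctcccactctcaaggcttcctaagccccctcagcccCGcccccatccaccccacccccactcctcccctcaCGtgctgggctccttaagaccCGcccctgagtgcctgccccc
These stretches held 15, 4, 51 and 4 CpGs, in the order printed. Of 32851 RefSeq promoters, 72.7% held fewer CpGs upstream than the RefSeq start of Tet1 and 99.9% fewer than that of Tet2. The other stretches lay below the median of 6 CpGs.

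The RefSeq start of Tet1, whose product begins the oxidation of 5-methylcytosine and is abundant in embryonic stem cells, was nearly unmethylated in both genotypes. Within 500 bp of it, 4 of 154 calls were methylated in control (2.60%, interval 0.712 to 6.52) and 1 of 115 in Dnmt1 KO at days 6 to 11 (0.870%, interval 0.0220 to 4.75). Around the GENCODE start, 32 of 93 control calls were methylated (34.4%, interval 24.9 to 45.0), and 2 of 35 in Dnmt1 KO at days 6 to 11 (5.71%, interval 0.700 to 19.2). The printed stretch with 15 CpGs lay mostly in the unmethylated region, whose edge in the windows of 20 CpGs falls inside it, and that with 4 CpGs beside partly methylated sequence. The unmethylated region ran through 6 consecutive windows of 20 CpGs from chr10:62347106 to chr10:62350247, in which control levels were between 0% and 2.97%. The GENCODE starts of Tet1 were all higher in control, from 28.8% to 95.2%. At the GENCODE start 19104 bp inside the gene, 52.3% of 107 control calls were methylated, and 1.64% of 61 calls in Dnmt1 KO at days 6 to 11.

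Dnmt3l, which stimulates Dnmt3a and Dnmt3b, also differed between its starts. The annotated gene Aire overlaps 7.68% of Dnmt3l and reaches into the 250 bases upstream of its first RefSeq start. At the upstream RefSeq start, chr10:77505032, 37 of 57 control calls were methylated (64.9%, interval 51.1 to 77.1), and 2 of 18 in late Dnmt1 KO (interval 1.38 to 34.7), where 2 of 5 libraries had calls, 0 of 9 methylated at day 6 and 2 of 9 in replicate 2 of day 11. Control replicate 1 of day 3 stood at 8.33% of 12 calls there, and the other control libraries at 50% or more. At the internal start 7895 bp into the gene, whose upstream stretch is printed above, only 2 of 70 control calls were methylated (2.86%, interval 0.348 to 9.94), although that stretch held 4 CpGs. The same start gave 2 of 39 in Dnmt1 KO at days 6 to 11 (5.13%, interval 0.627 to 17.3). At day 1 of Dnmt1 KO the internal start stood at 63.6% of 11 calls in replicate 2 and at 8.33% of 12 calls in replicate 1, so the higher day 1 level rested on a single library. The third RefSeq start, 13388 bp into the gene, had only 11 control calls, 1 of them methylated.

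**Figure D1:**
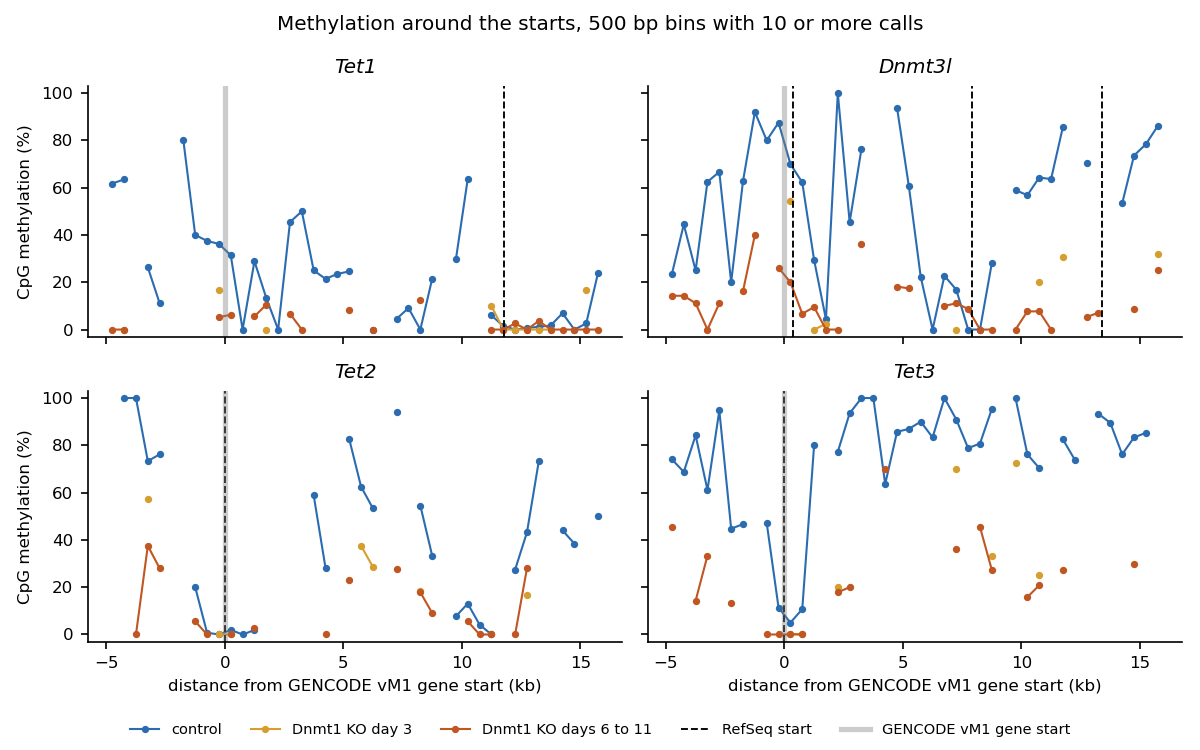
CpG methylation (%) in 500 bp bins against distance (kb) from the GENCODE vM1 gene start of Tet1, Dnmt3l, Tet2 and Tet3, with calls pooled over control libraries, over Dnmt1 KO at day 3 and over Dnmt1 KO at days 6 to 11. Bins under 10 calls are left blank, dashed lines mark RefSeq starts, and the flat unmethylated stretch of Tet1 lies at its RefSeq start, 11794 bp inside the annotated gene.

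The remaining starts were CpG-rich and low in control, and some had few calls in late Dnmt1 KO. Tet2 had 106 CpGs within 500 bp of its start, and 1 of 69 control calls was methylated (1.45%, interval 0.0367 to 7.81). Late Dnmt1 KO had 0 of 18 calls methylated there, from 2 libraries (interval 0 to 18.5). The Dnmt3a starts at chr12:3806980 and chr12:3807160 had 3 of 352 and 4 of 356 control calls methylated. In late Dnmt1 KO they had 0 of 32 from 2 libraries and 0 of 17 from 1 library. The start of the short isoform of Dnmt3a at chr12:3891744, which lies 85737 bp into the gene, had 1 of 186 control calls methylated (0.538%, interval 0.0136 to 2.96) and 3 of 83 in Dnmt1 KO at days 6 to 11 (3.61%, interval 0.752 to 10.2). Tet3 was the least sharp of the CpG-rich starts, with 9 of 124 control calls methylated (7.26%, interval 3.37 to 13.3) and 0 of 108 in Dnmt1 KO at days 6 to 11 (interval 0 to 3.36). Dnmt3b, Tdg and both starts of Uhrf1 had at most 4 methylated control calls each, of 199 to 281. Of the RefSeq starts, the intervals of control and late Dnmt1 KO were apart at the upstream start of Dnmt3l, where only 2 late libraries had calls, and, barely, at Tet3, where the control interval began at 3.37 and that of Dnmt1 KO ended at 3.36. At the others they overlapped, which at chr12:3807160 in Dnmt3a rested on only 17 late calls from 1 library.

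**Figure D2:**
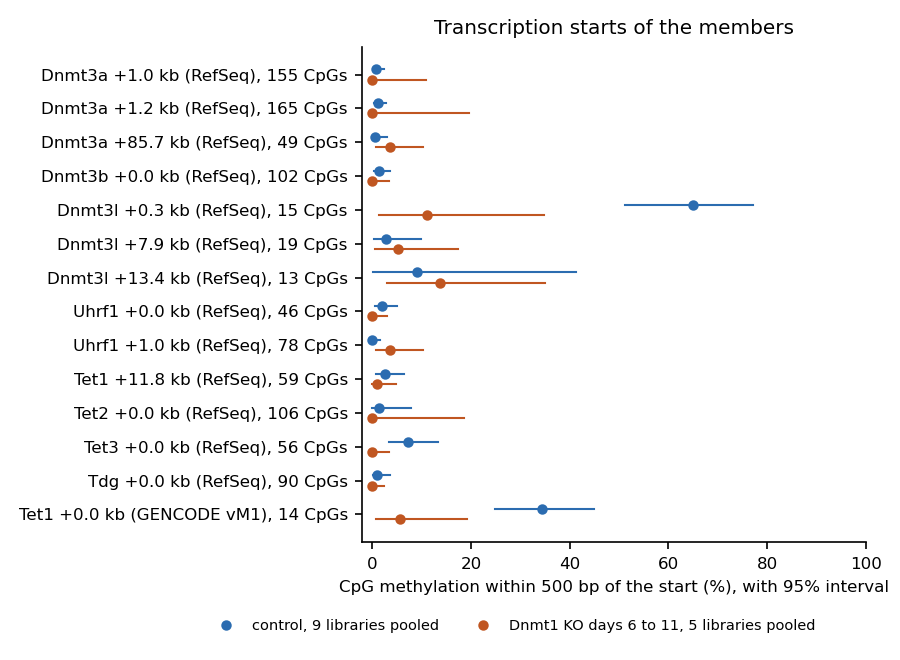
CpG methylation (%) within 500 bp of each of the 13 RefSeq starts and of the GENCODE start of Tet1, labelled by distance into the gene and number of CpGs. Points are levels pooled over control libraries and over Dnmt1 KO libraries of days 6 to 11, bars are 95% intervals, and only the upstream start of Dnmt3l and the GENCODE start of Tet1 stand high in control.

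For the annotated starts a test per library was possible in 3 members, Dnmt3l, Uhrf1 and Tet1, because the other 5 had fewer than 5 calls in at least 1 library. The test was a quasi-binomial likelihood-ratio test with dispersion shared over all genes, adjusted over 7266 starts by Benjamini-Hochberg, and a start or body was called where the adjusted p was under 0.05 and the 2 genotypes lay 10 points or more apart. Dnmt3l was the only member called, at day 6, where 9 of 10 control calls and 0 of 16 Dnmt1 KO calls were methylated (adjusted p = 0.0166, quasi-binomial test). With 1 library per genotype at day 6, the spread in tests of that day comes from the other groups, and these lone libraries are assumed to vary like them. With the replicate block the adjusted p was 0.0870 (limma), and with 500 bp either side or a higher coverage minimum no member was called at day 6. With every annotated transcript start 2 members were called at day 3 and 4 at each of days 6, 9 and 11, Tet1 at days 6 to 11 and Uhrf1 at days 9 and 11 among them. Of all starts tested, 8.06% were called at day 6. The other days gave 0.11% (day 1), 8.56% (day 3), 13.3% (day 9) and 11.5% (day 11). These shares belong to the windows at the annotated gene start, which called 622, 966 and 832 of 7266 at days 3, 9 and 11. Windows at every annotated transcript start also take in 1 kb around internal starts. They called 2810, 4149 and 3560 genes on those days. These wider windows can let more genes reach the minimum of 5 calls, and the number tested is not given. The counts of called members in these windows therefore have no share over all genes beside them. The tested window of the Dnmt3l start also overlaps the gene Aire. At day 9 the Dnmt3l start had 8 of 11 and 7 of 11 calls methylated in control. In Dnmt1 KO it had 2 of 14 and 1 of 5 (adjusted p = 0.0925, quasi-binomial test). At day 11 it had 6 of 7 and 11 of 14 in control and 3 of 9 and 6 of 24 in Dnmt1 KO (adjusted p = 0.0560). Summed over the 8 members, starts averaged 8.11% to 15.7% in control. From day 3 on they averaged 0.862% to 5.41% in Dnmt1 KO, beside control and Dnmt1 KO values of 48.8% to 55.3% and 20.7% to 27.9% over all gene starts. Of the 249 methylated control calls at the members' starts, 82 lay in Dnmt3l and 41 at the GENCODE start of Tet1.

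Bodies of all 8 members lost methylation after deletion of Dnmt1, and at days 3, 6, 9 and 11 each was called lower. Of the 15088 gene bodies tested, 98.6% were called lower at day 3, 99.3% at day 9 and 98.9% at both other days, so the members' count was that of nearly every gene. From day 1 to day 3 of Dnmt1 KO all 8 were called lower too, beside 97.9% of all gene bodies. Over days 6 to 11 pooled levels in Dnmt1 KO ran from 12.2% in Dnmt3l to 36.3% in Tet3, beside 53.2% and 82.8% in control over all days. Control at days 9 and 11 alone gave 45.7% and 81.6%. Every Dnmt1 KO library was lower than every control library of its day in each member from day 3 on, as held for 99.3% of all gene bodies at day 3 and, rounded, 100% at day 6 (15083 of 15088). It held for 99.7% at day 9 and 99.6% at day 11. At day 1 this held for 4 members, Dnmt3b, Tet1, Tet3 and Tdg, and for 61.7% of all gene bodies.

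**Figure D3:**
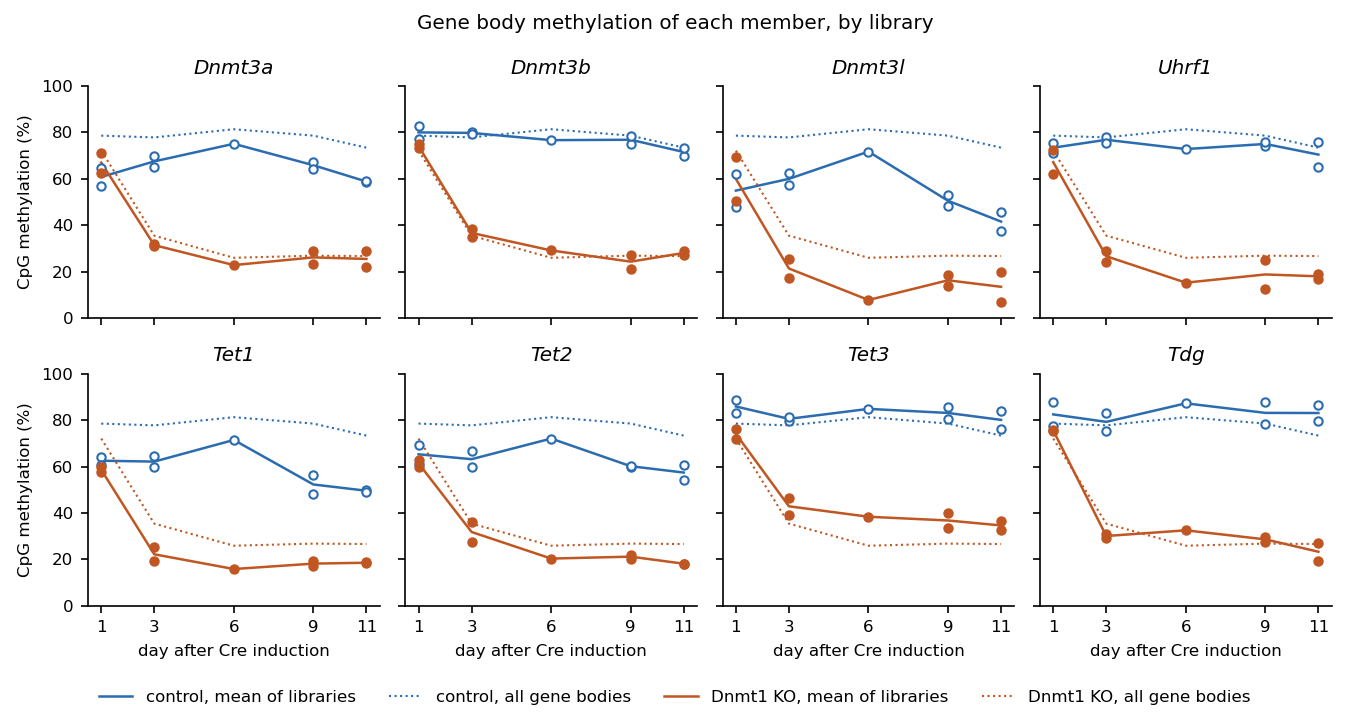
CpG methylation (%) of each gene body against day after induction of Cre, with open blue points for control libraries, filled orange points for Dnmt1 KO libraries, solid lines for their means and dotted lines for all gene bodies summed. Control and Dnmt1 KO points separate from day 3 on in each panel, Tet3 lies above the orange dotted line and, from day 3 on, the means of Uhrf1, Dnmt3l, Tet1, Tet2 and Dnmt3a below it.

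Among the methyltransferases, Dnmt3a started from a control body at 57.0% and 64.5% at day 1. It stood at 65.0% and 70.0% at day 3, 75.1% at day 6, 64.3% and 67.4% at day 9, and 58.7% and 58.9% at day 11. In Dnmt1 KO it was 62.7% and 71.3% at day 1, 31.0% and 31.8% at day 3, 22.8% at day 6, 23.5% and 28.8% at day 9, and 22.0% and 28.9% at day 11. The genotypes overlapped at day 1 and were apart at each later day. The difference was -36.0 ± 3.19 points (SE) at day 3 (adjusted p = 6.98e-12, quasi-binomial test) and -33.2 ± 2.99 at day 11 (adjusted p = 8.66e-12, quasi-binomial test).

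Dnmt3b, the other de novo enzyme, had control levels from 69.8% to 82.8% over the 9 libraries, with a median of 77.2%. Its Dnmt1 KO libraries stood at 34.9% and 38.5% at day 3, 29.1% at day 6, 21.2% and 27.4% at day 9, and 27.3% and 28.8% at day 11. It was 1 of 2 members called lower at day 9 than at day 3 of Dnmt1 KO, by 13.3 ± 4.68 points (adjusted p = 0.0445, quasi-binomial test), a step called lower in 16.7% of all gene bodies. The call was lost without either library of day 3 or of day 9, with adjusted p between 0.0554 and 0.354.

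Dnmt3l had the lowest control body, at 53.2% over all control calls, and the widest spread. Its control libraries ran from 37.4% at day 11 to 71.7% at day 6, and its Dnmt1 KO libraries of days 6 to 11 from 7.02% to 19.8%. At day 11, 37.4% and 45.7% in control faced 7.02% and 19.8% in Dnmt1 KO, a difference of -28.1 ± 6.01 points (adjusted p = 8.57e-05, quasi-binomial test). At day 6, with a single library per genotype and the spread taken from the other groups, the difference was -64.0 ± 7.71 points (adjusted p = 5.99e-08, quasi-binomial test). Only 981 control and 524 late Dnmt1 KO calls lay behind these values, beside 6028 and 2804 in Dnmt3a. The Dnmt3l body includes the internal start, where 2 of 70 control calls were methylated, and its part in these levels was not separated.

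Uhrf1, which brings Dnmt1 to newly replicated DNA, kept the smallest share of its control level at days 9 and 11, while at day 6 Dnmt3l kept the smallest. Its control libraries ran from 65.0% to 78.0%. Dnmt1 KO libraries stood at 61.9% and 72.4% at day 1, 24.3% and 28.9% at day 3, 15.2% at day 6, 12.5% and 25% at day 9, and 16.8% and 19.1% at day 11. At day 6 this was 20.9% of the control level, beside 10.8% in Dnmt3l. At day 11 it was 25.4% of the control level, beside 28.3% in Tdg, 31.6% in Tet2 and 43.5% in Dnmt3a. The difference at day 11 was -52.1 ± 5.47 points (adjusted p = 2.20e-09, quasi-binomial test). Shares of control in neighbouring members were not tested against each other.

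Of the 3 Tet genes, Tet1 and Tet2 reached overlapping levels in late Dnmt1 KO and Tet3 stood above both, which was not tested between genes. Tet1 stood at 64.2% and 60.9% in control at day 1, 71.5% at day 6, and 48.1% to 56.6% over days 9 and 11. Its 5 Dnmt1 KO libraries of days 6 to 11 lay close together, from 15.9% to 19.2%. The body of Tet1, drawn from the GENCODE start, includes the unmethylated region at its RefSeq start, which lowers its level in both genotypes. Tet2 had control levels from 54.1% to 72.1% and Dnmt1 KO levels of 18.2% to 22.1% over days 6 to 11, and it was the other member called lower at day 9 than at day 3, by 10.4 ± 3.69 points (adjusted p = 0.0432, quasi-binomial test). Without any single library of days 3, 9 or 11 of Dnmt1 KO except replicate 2 of day 3, this call was lost, with adjusted p from 0.0508 to 0.311.

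Tet3, the dioxygenase best known from the oocyte and zygote, had the most methylated body over pooled control calls and over pooled Dnmt1 KO calls of days 6 to 11. Tdg stood above it in control at day 6 (87.3% against 84.9%) and day 11 (83.1% against 80.02%) and in Dnmt1 KO at day 1 (75.6% against 74.1%), and these gaps were not tested. Control libraries ran from 76.2% to 88.6%, and Dnmt1 KO libraries stood at 39.4% and 46.5% at day 3, 38.4% at day 6, 33.6% and 40.1% at day 9, and 32.7% and 36.7% at day 11. It was the only member called at day 1, at 72.0% and 76.3% in Dnmt1 KO against 83.4% and 88.6% in control. The difference was -11.4 ± 2.69 points (adjusted p = 0.00362, quasi-binomial test), and 9.29% of all gene bodies were called lower at day 1. With limma on transformed levels the adjusted p of this day 1 difference was 0.0907, with the replicate block it was 0.170 (limma), and limma without the block called 1 gene body in all at day 1 where the quasi-binomial test called 1412. The call was also lost without control replicate 1 of day 1 (-9.21 points, adjusted p = 0.0673, quasi-binomial test) and without Dnmt1 KO replicate 2 of day 1 (-9.20 points, adjusted p = 0.0513, quasi-binomial test). At day 1 the other 7 differences lay between -6.50 and 6.47 points, with adjusted p of 0.106 or more (quasi-binomial test). Without Dnmt1 KO replicate 2 of day 1, Dnmt3a was called higher in Dnmt1 KO, by over 10 points (adjusted p = 0.0330, quasi-binomial test).

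Tdg, which removes the oxidised forms of 5-methylcytosine, stood near Tet3 in control, at 82.4% against 82.8% pooled, and below it in late Dnmt1 KO, at 27.9% against 36.3%. These gaps between genes were not tested. Its control libraries ran from 75.5% to 87.9%, and its Dnmt1 KO libraries of days 6 to 11 from 19.5% to 32.6%. At day 11, 79.7% and 86.6% in control faced 19.5% and 27.2% in Dnmt1 KO, a difference of -59.6 ± 5.63 points (adjusted p = 4.00e-10, quasi-binomial test).

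Between days 9 and 11 no member was called in either genotype. Over all gene bodies 0 were called (0%) in this step of Dnmt1 KO by the quasi-binomial test and 0 by limma, with 607 at an unadjusted p under 0.05 by the former, and 2.65% were called in control. Summed over the 8 bodies, levels were 69.3% ± 2.51 (SD, n = 2) in control and 66.7% ± 2.98 in Dnmt1 KO at day 1. At day 3 they were 69.7% ± 0.881 and 31.0% ± 1.09, at day 9 66.7% ± 2.35 and 25.1% ± 2.70, and at day 11 62.3% ± 1.26 and 24.0% ± 1.75. The single libraries of day 6 gave 76.6% and 23.4%. All gene bodies summed stood higher in control, from 73.4% to 81.4%, and between 25.9% and 26.8% in Dnmt1 KO from day 6 on. Relative to control the summed members kept 44.5% at day 3 and 30.5% at day 6, then 37.6% and 38.6% at days 9 and 11. All gene bodies kept 45.6%, 31.9%, 34.2% and 36.3% on the same days. The members' share was thus lower on the first pair of days and higher on the last pair, which was not tested. At days 9 and 11 the members' level in Dnmt1 KO, 25.1% and 24.0%, was itself below the 26.8% and 26.7% of all gene bodies. Their control level, 66.7% and 62.3%, was further below, beside 78.6% and 73.4%. The 5 gene bodies nearest to the summed members over the 10 groups were Abhd6, Nmnat2, Trak1, Ttc39b and Tead1, at root-mean-square distances of 1.46 to 1.57 points.

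To ask whether a member kept more or less methylation than genes alike in control, each body was compared with gene bodies of the same control level, in bins of 2 points. The control level was pooled over all days and is not the starting level of the Dnmt1 KO cells. The excess of a member was its level in each of the 4 Dnmt1 KO libraries of days 9 and 11 minus the mean of its bin, tested against 0 with limma over 14961 gene bodies. Tet3 stood 6.01, 11.8, 5.05 and 8.54 points above its bin in the 4 libraries (day 9 replicates 1 and 2, then day 11 replicates 1 and 2), 7.84 ± 3.01 on average (SD, n = 4, limma adjusted p = 0.00021). Dnmt3a stood 4.26, 8.39, 2.79 and 8.91 points above in the same order, 6.09 ± 3.03 on average (SD, n = 4, limma adjusted p = 0.0011). Neither reached the 10 points set for a call, so 0 of 8 members were called, beside 5.75% of all gene bodies tested. By adjusted p alone these 2 members passed, as did 20.9% of all gene bodies. Both were above their bins at day 3 and day 6 as well, Tet3 by 5.78 points at day 3 and by more than its 7.84 at day 6, and Dnmt3a by 3.60 and 4.31. At day 1 of Dnmt1 KO, Dnmt3a stood 10.1 points above its bin in replicate 1 and under 1 point above in replicate 2, 5.43 on average, and Tet3 lay at -2.27 points. Matched on control level and CpG density together, the excess of Tet3 was 4.65 points (limma adjusted p = 0.0309). Matched on the level at day 1 of Dnmt1 KO, that of Dnmt3a was 2.83 points (limma adjusted p = 0.133). The control level used for matching includes the low windows inside Dnmt3a, and their effect on its excess was not tested.

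**Figure D4:**
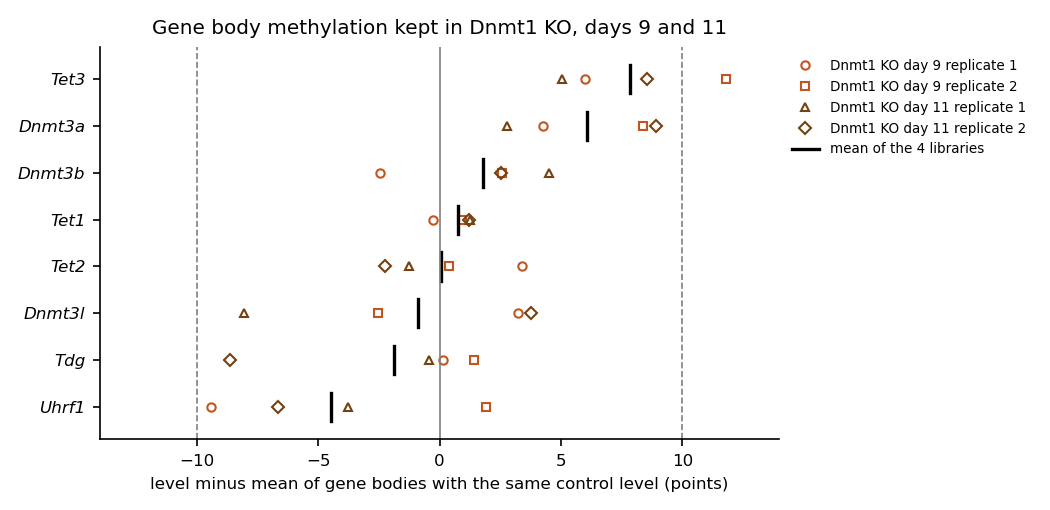
Level of each member's body at days 9 and 11 of Dnmt1 KO minus the mean of gene bodies with the same control level, in percentage points, with a symbol per library and a black bar for the mean of 4. All 4 symbols of Tet3 and of Dnmt3a lie above 0 and their means lie inside the dashed lines at 10 points.

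The other 6 members did not pass. Uhrf1 stood -9.40, 1.89, -3.79 and -6.64 points from its bin in the 4 libraries, with a mean of -4.49 ± 4.83 (SD, n = 4, limma adjusted p = 0.33). It lay at -4.48 points at day 3 and -7.01 at day 6, and its mean ranged from -6.61 to -2.85 over 11 alternatives. Tet1 lay between -0.274 and 1.25 points from its bin in the 4 libraries. When the deviation of the control library with the same day and number from that bin was subtracted, a different quantity, the value was 6.89 points (limma adjusted p = 0.0139). Means of Dnmt3b, Tet2, Dnmt3l and Tdg lay between -1.89 and 1.78 points, with limma adjusted p of 0.614 or more. Coverage of the members was compared as well, and their share of a library's calls in Dnmt1 KO was, on average, between 0.879 of control in Dnmt3a and 1.07 of control in Dnmt3l.

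Inside the members levels varied with CpG density and position. CpGs were classed by the number of CpGs within 250 bp, the CpG included. Sparse CpGs (under 10) stood at 71.4% in control and 25.1% in Dnmt1 KO over days 6 to 11, and intermediate CpGs at 64.2% and 22.1%. Dense CpGs (25 or more) stood at 4.02% and 1.21%. These classes take in the start windows as well as the bodies. Of the start CpGs, 119 of 141 were dense in Tet2, 44 of 86 in Tet3, and 0 in Dnmt3l and Tet1. Density and closeness to a start were therefore not separated. Summed over the members, exonic CpGs of the bodies were higher than intronic ones, at 77.9% against 65.2% in control and 28.1% against 23.0% in late Dnmt1 KO. In late Dnmt1 KO exons were higher than introns in 4 members and lower in the other 4, namely Dnmt3b (24.9% against 28.0%), Dnmt3l (10.8% against 12.7%), Tdg (24.7% against 29.7%) and Tet3. The gap was widest in Tet1 and Tet2. In Tet1 exons stood at 75.3% in control and 27.9% in late Dnmt1 KO, and introns at 53.6% and 15.3%. The body of Tet1 includes the unmethylated region at its RefSeq start, and the part of that region in these levels was not separated. In Tet3 exons and introns stood at 83.1% and 82.7% in control and 35.3% and 36.6% in late Dnmt1 KO.

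Of 315 windows of 20 CpGs in the 8 genes, 283 had at least 20 calls in control and in Dnmt1 KO at days 6 to 11. In control 40 of these were under 20% methylated, 23 of them more than 1 kb from the annotated start, and 10 of those 23 lay in Tet1 and 8 in Dnmt3a. In late Dnmt1 KO 16 of the 283 windows stood at 50% or more. These were 8 of 52 in Tet3, 4 of 70 in Dnmt3a, 2 of 23 in Dnmt3b, 1 of 34 in Tet2 and 1 of 16 in Tdg. None was found among 18 windows of Uhrf1, 56 of Tet1 and 14 of Dnmt3l, so the numbers of windows were unequal. The highest window of Tet3, chr6:83329415-83331032, 61465 bp into the gene, kept 59.4% of 32 calls (interval 40.6 to 76.3) against 83.1% of 65 in control. Windows were described after the levels were known and none was tested.

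**Figure D5:**
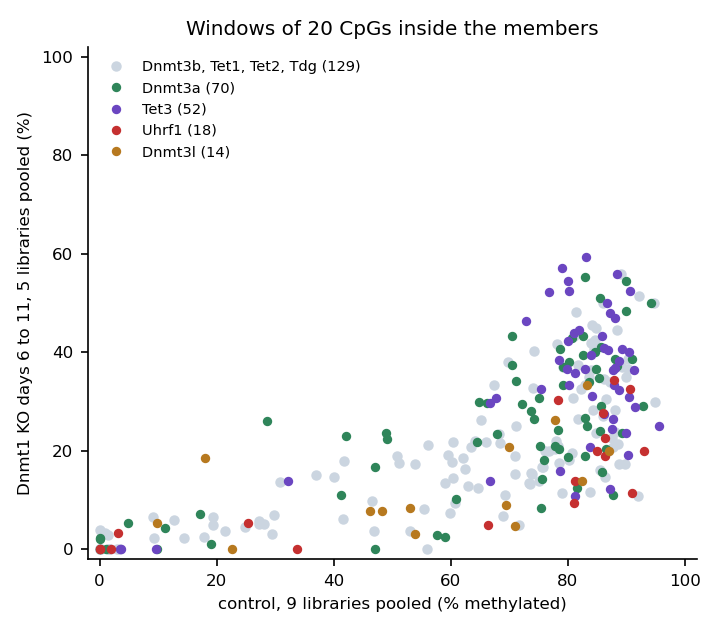
Each point is a window of 20 CpGs inside a member, with its methylation (%) in the 9 control libraries pooled on the horizontal axis and in late Dnmt1 KO (days 6 to 11, 5 libraries pooled) on the vertical axis, for windows with at least 20 calls in each. Windows of Tet3 reach the highest late levels, up to 59.4%, and those of Uhrf1 and Dnmt3l, only 18 and 14 in number, remain under 50%.

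Genes of related pathways are given by list, beside 98.6% to 99.3% of all gene bodies called lower at days 3 to 11. Of 6 tested methyl-CpG readers, which bind methylated DNA, 6 were called lower on each of days 3, 6, 9 and 11. By level in Dnmt1 KO at days 9 and 11, Mbd2 and Mbd1 stood highest, at 30.9% and 28.7%, while Mbd4 stood at 17.1%. Of 5 tested partners of maintenance methylation, 5 were called lower on the same days. Uhrf2 stood at 30.3% and Dnmt1 at 27.4%, and the lowest were Usp7 at 16.2% and Hells at 24.5%. Of 7 tested base excision and deamination genes 7 were called lower. Neil2 stood at 34.9%, Parp1 at 28.6% and Ung at 12.7%. Of 7 tested CXXC, O-GlcNAc and metabolic genes 7 were called lower, with Trdmt1 at 30.4% and Ogt at 28.2% the highest and Cxxc5 at 15.8% and Cxxc4 at 14.4% the lowest. Of 4 tested partners of H3K9 methylation 3 were called lower at days 3 and 9 and 4 at days 6 and 11. Setdb1 stood at 31.0%, Ehmt1 at 29.6%, Ehmt2 at 13.8% and Zfp57 at 4.71%. None of the genes tested on these lists was called for an excess over its bin, beside 5.75% of all gene bodies. Median excess ran from -0.984 points in base excision and deamination to 2.40 in partners of maintenance, beside 0.418 in the 8 members.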

How the data were processed

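The authors used Trim Galore for trimming and Bismark for alignment to NCBIM37, then removed duplicates and extracted CpG calls. The submitters' processing notes named Bismark 0.12.3, and the methods a later version. The deposited tables held methylated and unmethylated counts per cytosine and strand, and the deposited percent equalled the methylated share of those counts and was not used further. Counts were used as deposited, without normalization, and both strands of a CpG were summed.

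Calls were summed per gene body and start in Python 3.11.15. Differences were tested with a quasi-binomial likelihood-ratio test in R 4.3.3, with a level per genotype and day and dispersion moderated with limma 3.58.1 over all genes. Bodies needed 20 calls and starts 5 in every library. Excess over genes of the same control level was tested with limma in bins with at least 20 genes. Benjamini-Hochberg adjustment covered all genes tested. The tests of bodies and of excess were checked on simulated gene bodies. Starts, with fewer calls and lower levels, were not simulated. The study used rank-sum tests for these data, whereas counts per library were tested here so that libraries are the replicates. Named were the 8 members, Dnmt1, the 5 nearest gene bodies and, of each pathway list, genes called for an excess or otherwise the 2 highest and 2 lowest, of which some are not reported here. Members, lists and rules were chosen with earlier results of these data known. RefSeq starts were added after the levels were seen.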

Additional observations from a re-analysis of the deposited data

Results flagged for a closer look

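At the Uhrf1 start the Dnmt1 KO library of day 6 lay above control by 17.0 points, whereas Dnmt1 KO lay below control on each of the 4 other days. The value rested on 2 methylated calls of 11 in Dnmt1 KO, beside 1 of 88 in control. With every annotated transcript start the day 6 difference turned to -7.39 points. Whether the days differed was not tested, and the share of all starts with libraries apart in this way is not given.

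At the Tet1 start both Dnmt1 KO libraries of day 3, at 18.2% and 21.7%, lay above both control libraries, at 16.7% and 0%, by 11.6 points on average, and at day 6 Dnmt1 KO lay below control. These libraries held 6 to 23 calls each, and with every annotated transcript start the day 3 difference turned to -24.8 points. The difference between days was not tested, and here too no share over all starts is given.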

How the results depend on the processing

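The loss in the 8 bodies at days 3 to 11 kept its direction and call in 696 of 696 alternatives, a direction and call shared by nearly every gene body. Most of these left out a library of another day, which cannot change the difference. At day 1, where only Tet3 was called and the differences had either sign, 165 of 174 kept their direction and side of the threshold, 4 lost the call of Tet3, 1 gained a call of Dnmt3a and 4 turned direction. Calls per start were few, which limits every value at starts. Where a value moved, the cause was not tested.

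Leaving out 1 library at a time, calls in all bodies at day 1 ranged from 398 (without control replicate 1) to 1548, with 0 to 1 members, from day 3 to day 9 of Dnmt1 KO from 892 (without day 9 replicate 1) to 2628, with 0 to 2 members, and from day 9 to day 11 of control from 69 (without day 9 replicate 1) to 496. Called starts ranged from 8 to 18 at day 1, 170 to 646 at day 3, 294 to 1005 at day 9 and 270 to 864 at day 11. The Dnmt3l body at day 1 ranged from -4.22 to 14.8 points, the Tet2 body from -7.99 to 0.0410, the Dnmt3l start at day 3 from -64.3 to 0.420 and the Tet1 start at day 11 from -35.9 to 11.8. Excess ranged from -2.46 to 1.49 in Dnmt3l, -2.99 to 0.360 in Tdg and -1.04 to 0.838 in Tet2.

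With limma on arcsine levels, 1 body was called at day 1 and 0 members, 1 member from day 3 to day 9, 0 bodies in control from day 9 to day 11, and 0, 402, 252 and 528 starts at days 1, 3, 6 and 11. Same-numbered replicates did not deviate together gene by gene (correlations of -0.0151 to 0.0107 across 10802 genes, which are not independent). The differences were centred on their median and hold counting error. The check therefore cannot show a weak or library-wide pairing, and whether the numbers pair cultures is not known. With the replicate block, 0 bodies and 0 members were called at day 1, 0, 252, 54 and 331 starts at days 1, 3, 6 and 11, with 0 members at day 6. For excess, the block subtracted the deviation of the same-numbered control library, which changes the quantity, and called 565 bodies, with Dnmt3l at 4.22 points. No block was fitted to steps between days.

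With no minimum difference, 3121 bodies were called at day 1, 962 in control from day 9 to day 11, 19 starts at day 1, and 3124 bodies for excess with 2 members. A higher coverage minimum, which left out the bodies of Dnmt3l and Uhrf1, called 135, 136, 200 and 169 starts at days 3, 6, 9 and 11 with 0 members at day 6, and 491 bodies for excess, with Tet2 at -0.12 points. Without cytosines of over 20 calls 4 starts were called at day 1. With 500 bp either side, 0, 64, 46, 66 and 69 starts were called at days 1 to 11, and 0 members at day 6.

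With every annotated transcript start, 4, 2810, 2960, 4149 and 3560 genes were called at starts at days 1 to 11, with 2, 4, 4 and 4 members from day 3 on, and 0 members from day 3 to day 9. The number of genes tested in these wider start windows is not given, so the start counts have no share beside them. The Dnmt3a body at day 1 became -0.84 points, the starts of Tet1, Dnmt3l and Uhrf1 at day 1 became 8.41, 3.75 and 0.88, that of Tet1 at day 3 -24.8 and that of Uhrf1 at day 6 -7.39. The summed bodies gave -40.1 points at day 11, the summed starts 1.52, -17.5, -34.5, -23.2 and -24.6 at days 1 to 11, and, in an alternative chosen after seeing the data, the excess of Tdg was 1.53. The mean of the members' levels gave -40.8, -44.6 and -41.6 points for bodies at days 3, 9 and 11, and -11.2, -19.0, -19.4 and -18.0 for starts at days 3, 6, 9 and 11. Matching on control level and CpG density called 426 bodies for excess. Matching on Dnmt1 KO at day 1 turned the excess of Dnmt3b to -0.23, of Tet2 to -0.61 and of Tet1 to -0.64 points.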
